A study of Mus musculus with 6 samples.

Results

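Of the 9 genes examined here for fatty acid uptake and triglyceride synthesis in the small intestinal mucosa, 0 passed the test between alk-SMase KO and WT mice, and the levels of the KO and WT libraries overlapped for each of them. Over the whole table only 1 of 13089 rows tested passed, and 17.2% of rows were without overlap, so these counts do not set the 9 genes apart. The differences between single mice were larger than those between the genotypes. The mean FPKM of Fabp1 was 2104 in KO and 3502 in WT, but its level ranged over 5.57 times among the 6 mice. The genes were Cd36, Fabp1, Fabp2, Slc27a4, Acsl5, Mogat2, Dgat1, Dgat2 and Agpat2. They were taken by symbol from a list that used no threshold on their values, and all 9 were found among the 12397 genes that could be named in a table of 22700 rows.

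The RNA came from tissue labelled intestinal, which the study's methods place in the middle small intestine, of C57BL/6 mice, and each mouse gave 1 library. There were 3 KO libraries, K79S, K82S and K86S, and 3 of WT mice, W83S, W89S and W90S, and values below keep this order within each genotype. In the KO mice exon 2 of Enpp7, the gene of alk-SMase (an enzyme that splits sphingomyelin in the gut lumen), was removed with Cre and loxP. The driver of Cre, the age of the mice and a treatment are not named for either group, and all were on standard pellets. Expression was deposited as FPKM, the number of fragments per kilobase of gene, scaled to the mapped reads of a library, so levels can be set side by side between genes. FPKM does not carry the number of reads behind a value. Each p-value from limma tests the difference between the means of 3 KO and 3 WT mice. The difference is set against the spread among mice of a genotype, moderated by a trend over all rows tested. SE stands for the standard error of a log2 fold change.

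The identifiers in the deposited table stood beside the values of other genes, and each gene was put back on its row by rank. After this step 99.67% of the 3649 genes with a single annotated transcript had at most 6 printed decimals, against 5.80% of the 8748 genes with several transcripts. Beside the identifiers as deposited these shares were 33.87% and 34.33%. All 9 genes carried the number of decimals that fits their transcripts. For all but Fabp1 and Fabp2, which have several transcripts, this is a weak check. Beside the identifiers as deposited only 34.33% of such genes had at most 6 decimals, so most wrong rows would pass too.

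Fat reaches the enterocyte as fatty acids and monoacylglycerol, the products of lipase in the gut lumen. Fatty acids enter across the brush border with the help of CD36 and the transport protein FATP4, are held in the cytosol by fatty acid-binding proteins, and are activated to acyl-CoA. At the endoplasmic reticulum MGAT2 adds an acyl group to monoacylglycerol, and DGAT1 or DGAT2 adds the last one to make triglyceride, which leaves the cell in chylomicrons. A second route builds triglyceride from glycerol 3-phosphate, with AGPAT2 among its enzymes. These genes are known to be most active in the proximal and middle small intestine.

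Several facts of the libraries bear on the values. Enpp7 had 604.5, 128.9 and 669.7 FPKM in the KO mice and 406, 667 and 495 FPKM for the WT mice, and such a level cannot report whether exon 2 is gone. In W83S 7 gastric markers summed to 41019 FPKM, or 8.48% of the library, while they summed to at most 5.72 FPKM in each other library. The tissue label was borne out by the enterocyte markers, of which 10 of 10 could be named, led by Anpep, Krt20 and Vil1 with between 897 and 3977 FPKM in every library. In bulk tissue fewer cells of a type and less RNA per cell cannot be told apart.

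Cd36 encodes a scavenger receptor that binds long-chain fatty acids at the cell surface. It lies on the minus strand of chromosome 5 of the mm10 genome, from 17781690 to 17888801, and has 6 annotated transcripts. Its level was 18.1, 8.05 and 27.7 FPKM in the KO mice and 18.3, 5.88 and 14.8 FPKM for the WT mice. The lowest library of each genotype, K82S and W89S, stood apart from the other 4, and the genotypes overlapped. Cd36 was the weakest of the 9 genes. The means of 17.9 ± 9.81 FPKM (KO) and 13.0 ± 6.40 FPKM (WT, SD, n = 3) gave a log2 fold change of 0.42 (SE 0.53, with adjusted p = 0.759, limma).

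Cd36 is also made by endothelial cells, fat cells and macrophages. Of 8 macrophage markers 6 could be read. Their sum ranged from 63.0 to 197 FPKM among KO mice and from 87.3 to 242 FPKM among WT mice. Lyz2 (lysozyme) made up 184 FPKM of the sum in W89S, 123 FPKM in W90S and 122 FPKM in K82S. Without Lyz2 the sums were 45.5, 74.9 and 71.6 FPKM for KO and 46.3, 58.6 and 53.2 FPKM for WT mice. K82S and K86S, the KO mice with the least and the most Cd36, thus held the highest of these sums. The complement genes C1qa and C1qb were highest in the same libraries, C1qa with 30.6 FPKM (K82S) and 29.96 FPKM (K86S) and C1qb with 21.8 and 19.98 FPKM. Csf1r, picked after its values were seen, was above every WT mouse in each KO mouse (4.69, 5.52 and 6.90 FPKM against 3.32, 4.53 and 3.39 FPKM, log2 fold change 0.49, adjusted p = 0.393, limma). The genotypes were apart in this way, in either direction, for 17.2% of all rows tested. Fabp4, which is found in fat cells and capillaries, was at most 1.28 FPKM outside K82S and 6.28 FPKM in K82S. It was the only endothelial marker of 8, and with Cidec 1 of 2 fat cell markers of 8, that could be read, and the part of these cells in the level of Cd36 was not tested.

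Slc27a4 encodes FATP4, which takes up fatty acids and couples them to coenzyme A. The gene spans 29802634 to 29817522 on the plus strand of chromosome 2. It had 559 FPKM in K79S, 324 FPKM in K82S and 456 FPKM in K86S, beside 339.6, 344 and 378 FPKM for the WT mice. The WT mice were close to each other, while the KO mice lay on either side of them. The KO mean of 447 ± 118 FPKM stood against 354 ± 21.2 FPKM (WT, SD, n = 3), and the log2 fold change was 0.30 with a 95% interval of -0.27 to 0.87. Its adjusted p, 0.604 from limma, was the lowest of the 9 genes. Slc27a4 exceeded Cd36 in every library, by 16.5 times in K86S and by 58.5 times in W89S.

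**Figure D1:**
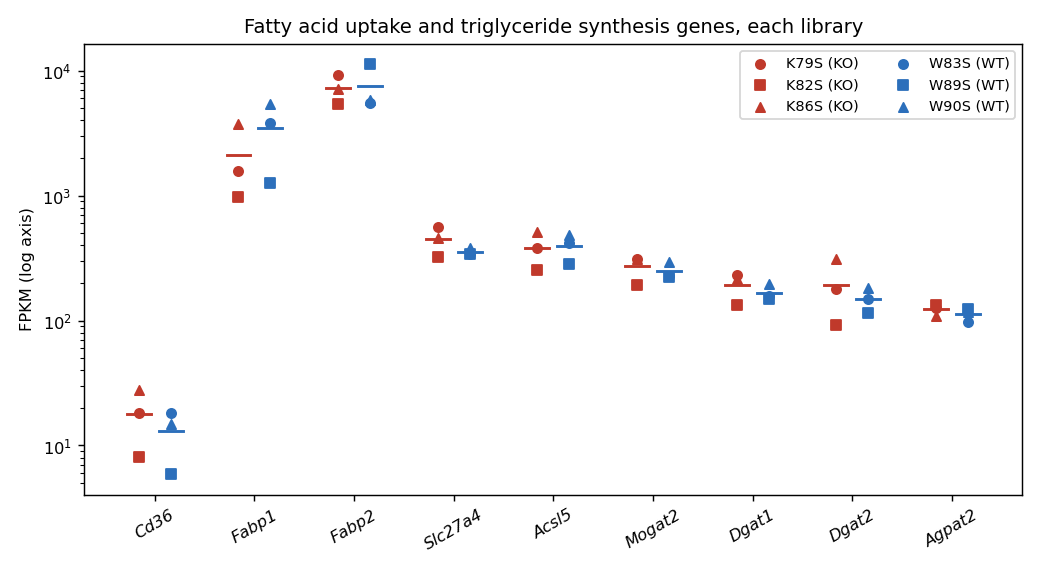
FPKM (log axis) of the 9 genes in each library, with KO mice in red on the left and WT mice in blue on the right of each gene, and the group mean as a bar. The red and blue points overlap for every gene, Fabp2 reaches 11224 FPKM, and Cd36 stays at or below 27.7 FPKM.

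The fatty acid-binding proteins were the most abundant products of the list. Fabp1 (the liver type, which also carries other hydrophobic ligands) and Fabp2 (the intestinal type) together held between 84.9% and 90.9% of the summed FPKM of the 9 genes. Fabp1 lies on chromosome 6 from 71199827 to 71205023 and Fabp2 on chromosome 3 from 122895072 to 122899506, both on the plus strand and each with 1 annotated transcript.

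Fabp1 had 1576, 972 and 3765 FPKM in the KO mice, and 3834, 1255 and 5415 FPKM for the WT mice. The mice fell into a low set (K79S, K82S and W89S, up to 1576 FPKM) and a high set (K86S, W83S and W90S, from 3765 FPKM), with both genotypes in each. Fabp2 had 9186, 5432 and 7161 FPKM in the KO libraries and 5519, 11224 and 5878 FPKM in the WT libraries, in the same order. It was highest in W89S and K79S, where Fabp1 was low, whereas K82S was the lowest library for both genes.

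Fabp1 thus made up 14.6%, 15.2% and 34.5% of the sum of the pair in K79S, K82S and K86S, and 41.0%, 10.1% and 47.9% in W83S, W89S and W90S. This share does not depend on the scaling of a library. Between KO and WT the log2 fold change was -0.73 for Fabp1 (SE 0.69, 95% interval -2.37 to 0.92, with adjusted p = 0.668, limma). For Fabp2 it was -0.01 (SE 0.36, 95% interval -0.86 to 0.84, with adjusted p = 0.993, limma), and its means were 7260 ± 1879 FPKM (KO) and 7540 ± 3195 FPKM (WT, SD, n = 3). The interval of Fabp1 spans a fall to 0.194 times and a rise to 1.89 times the WT level, so a change of 1.5-fold in either direction was not detectable at this number of mice.

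**Figure D2:**
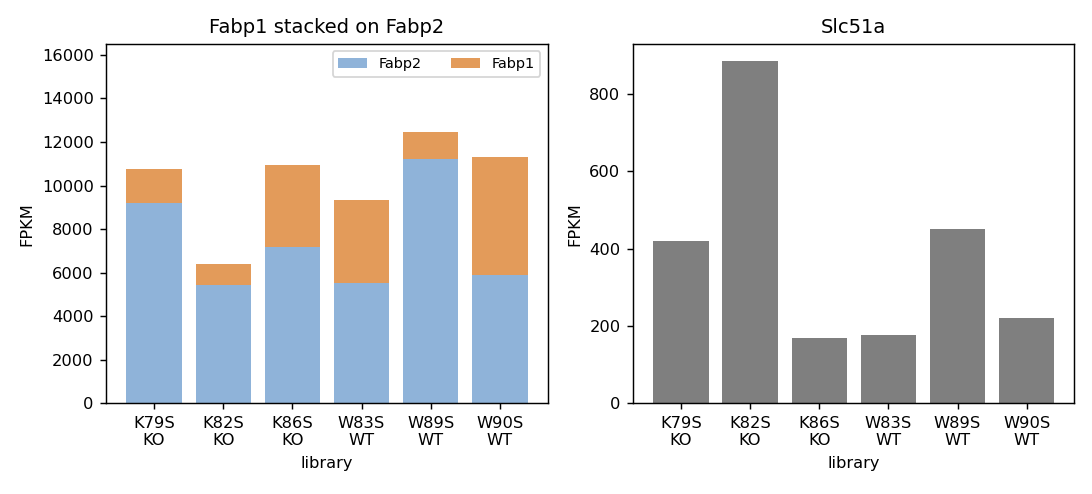
FPKM of Fabp2 (blue) with Fabp1 stacked on it (orange), left, and FPKM of Slc51a, right, for each library. The Fabp1 part is lowest in K79S, K82S and W89S (972 to 1576 FPKM), and these are the 3 libraries in which Slc51a is above 420 FPKM.

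The upstream sequences of the pair are shown because the levels of these genes of a shared function were ordered differently among the mice. RefSeq start sites (GRCm38.p6, the assembly of mm10) were at hand for 6 of the 9 genes, Cd36, Fabp1, Fabp2, Slc27a4, Acsl5 and Agpat2. The 250 bases before each start were searched on both strands. Capitals mark matches to the searched letters. For Fabp1, whose first exon begins 52 bases earlier in GENCODE M21 than in RefSeq, the stretch ends before that exon. The windows of Cd36 (17835897 to 17836146) and Acsl5 (55253119 to 55253368) lie inside the GENCODE M21 spans of these genes. Matches in them are thus upstream of the RefSeq start only. The sequences are chr6:71199629-71199826 and chr3:122894822-122895071, plus strand.
Fabp1: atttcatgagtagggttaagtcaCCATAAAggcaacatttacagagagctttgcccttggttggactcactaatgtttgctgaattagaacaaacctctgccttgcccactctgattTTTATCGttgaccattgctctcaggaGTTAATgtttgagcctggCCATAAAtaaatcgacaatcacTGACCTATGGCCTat
Fabp2: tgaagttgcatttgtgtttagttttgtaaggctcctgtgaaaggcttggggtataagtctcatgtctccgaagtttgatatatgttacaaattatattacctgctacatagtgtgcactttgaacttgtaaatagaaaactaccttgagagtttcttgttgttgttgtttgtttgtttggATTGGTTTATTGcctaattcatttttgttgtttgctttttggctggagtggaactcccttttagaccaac

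Fabp1 held a direct repeat of AGGNCA with a spacer of 1 base, the arrangement that PPAR with RXR and HNF4 are known to bind. It lies on the opposite strand, 67 to 55 bases before the RefSeq start, and was found in 0.338% of all 32851 windows of this length and in none of the other 5 genes. The half-site AGGTCA, which overlaps that repeat in Fabp1, was present in Fabp1 and Cd36 and in 14.0% of all windows. GTTAAT, part of the HNF1 site, was found 107 to 102 bases before the start of Fabp1 alone among the 6, and in 6.43% of all windows. TATAAA stood 30 to 25 bases before the RefSeq start of Fabp1 (12.4% of all windows), in the part not shown.

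TTTATNG, the letters of the CDX site, occurred 3 times before Fabp1 and once before Fabp2, where it lies directly beside CCAAT read on the opposite strand, sharing no base with it (9.81% and 33.8% of all windows). GATAA was found before Fabp1, where it overlaps a CDX match, and before the RefSeq start of Acsl5 (22.6% of all windows). CCAAT was also found before the RefSeq starts of Cd36 and Acsl5. Slc27a4 and Agpat2 held none of the 7 motifs. A match is a description of the letters, and binding was not measured.

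Acsl5 encodes an acyl-CoA synthetase, which activates long-chain fatty acids and is known to be abundant in the intestine. It is on chromosome 19, plus strand, from 55251938 to 55297720. Its levels in the KO mice were 379, 252 and 508 FPKM (K79S, K82S, K86S), and in the WT mice 418, 285 and 487 FPKM (W83S, W89S, W90S). K82S and W89S were again the lowest of their genotype. The means differed little, 379.8 ± 128 FPKM (KO) and 396 ± 103 FPKM (WT, SD, n = 3), with a log2 fold change of -0.08 (SE 0.33, with adjusted p = 0.930, limma).

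Mogat2 encodes MGAT2, the acyltransferase of the monoacylglycerol route. Mogat2 and Dgat2 belong to the same enzyme family and are neighbours on the minus strand of chromosome 7, Dgat2 from 99153658 to 99182719 and Mogat2 from 99219084 to 99238619, with 36364 bases between them. Mogat2 had 314, 193 and 311 FPKM in the KO mice against 228, 222 and 294 FPKM for the WT mice, with the lowest value in a KO mouse and the highest in another. Dgat2 had 178, 93.0 and 309.7 FPKM in the KO libraries and 149, 115 and 183 FPKM in the WT libraries. K82S and K86S were thus its lowest and highest library, 3.33 times apart within a single genotype.

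The means were 273 ± 68.9 FPKM (KO) and 248 ± 40.1 FPKM (WT, SD, n = 3) for Mogat2, and 194 ± 109 and 149 ± 34.0 FPKM for Dgat2. The log2 fold change was 0.12 (SE 0.25, with adjusted p = 0.869, limma) for Mogat2 and 0.24 (SE 0.44, with adjusted p = 0.843, limma) for Dgat2. The 95% interval was -0.49 to 0.72 for Mogat2 and -0.82 to 1.29 for Dgat2. Although the genes are neighbours, Mogat2 ranged over only 1.62 times among the 6 mice.

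Dgat1 catalyses the same last step as Dgat2 but is unrelated to it in sequence. It lies on chromosome 15, minus strand, from 76502015 to 76511953, with 12 annotated transcripts. It had 231, 134 and 217 FPKM in the KO mice, and 157, 148 and 195 FPKM for the WT mice. As for Mogat2, 2 KO mice lay above all WT mice and the third, K82S, below them. Its means were 194 ± 52.7 FPKM (KO) and 166 ± 25.0 FPKM (WT, SD, n = 3), with a difference of 0.19 on the log2 scale (SE 0.26, 95% interval -0.43 to 0.81, with adjusted p = 0.773, limma). Dgat2 was less abundant than Dgat1 in 5 libraries, at 0.696 to 0.952 times its FPKM, and 1.43 times as abundant in K86S.

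Agpat2 makes phosphatidic acid in the glycerol 3-phosphate route and is best known from fat cells. It is on chromosome 2, minus strand, from 26593057 to 26604417. It was the steadiest of the 9 genes, with 127, 134 and 108 FPKM in the KO mice and 96.8, 124 and 117 FPKM for the WT mice. It was also the only one that was highest in K82S. The means of 123 ± 13.5 FPKM (KO) and 113 ± 14.2 FPKM (WT, SD, n = 3) gave a log2 fold change of 0.13 (SE 0.18, 95% interval -0.30 to 0.56, with adjusted p = 0.778, limma).

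Over the list, 6 genes had a log2 fold change above 0 and 3 below, and 0 of 9 passed a fold change of 1.5 with an adjusted p-value under 0.05 (limma on log2(FPKM + 1), Benjamini-Hochberg over all rows). At an unadjusted p under 0.05 the count was 0 of 9 as well, beside 1638 of the 13089 rows tested. Over all rows tested 0.00764% were called, a single row, so the absence of calls among the 9 genes does not set them apart. For 0 of 9 genes the KO and WT libraries were apart, against 17.2% of all rows. A two-sided exact permutation test of 3 against 3 mice cannot go below p = 0.1, and it gave p = 0.4 to 0.9 for the 9 genes. The median log2 fold change of the 9 genes was 0.13, beside -0.06 over all rows. Rescaling each library to the same FPKM sum raised the median of all rows by 0.14, and then 8 of the 9 genes lay above 0 and Fabp1 below, since Fabp2 and Acsl5 changed sign (0.18 and 0.10).

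**Figure D3:**
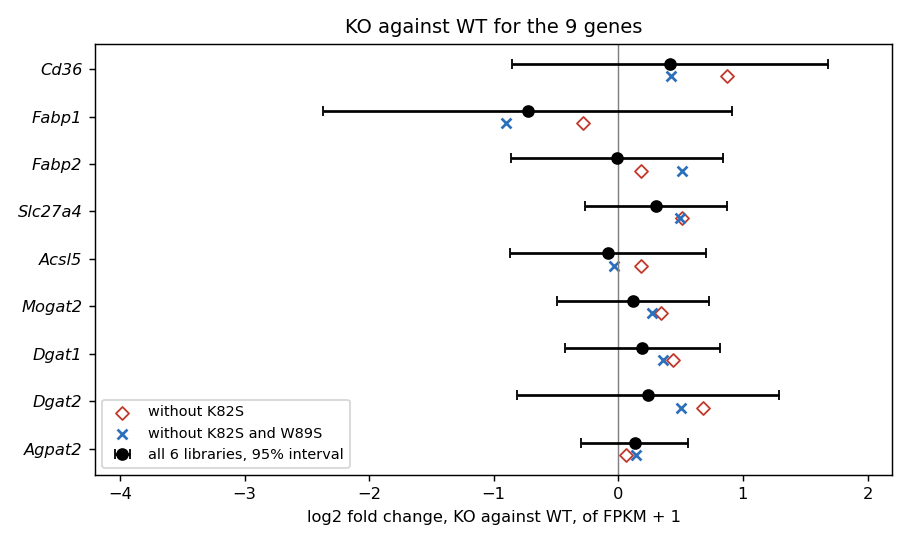
log2 fold change of FPKM + 1, KO against WT, for the 9 genes (black points, with 95% intervals), and the values without K82S (diamonds) and without K82S and W89S (crosses). All 9 intervals include 0, and without K82S every gene but Agpat2 moves to the right.

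K82S weighed on these values. It was the lowest library for 7 of the 9 genes, while 13.1% of all tested rows were lowest in it, and for 5 of 9 when each library was rescaled to the same FPKM sum. Without K82S the log2 fold change was above 0 for 8 of the 9 genes, led by Cd36 (0.87), Dgat2 (0.68) and Slc27a4 (0.51). In that fit 0 of 9 were called beside 9.28% of all rows, a share at which 0 of 9 does not set the genes apart. At an unadjusted p under 0.05 (limma) the count was 1 of 9, beside 3284 of the 12764 rows tested. The lowest adjusted p was 0.143 from limma, for Slc27a4, whose range over all alternatives was 0.143 to 0.913. Fabp1 stayed below 0, at -0.28, and its value rested on single mice, with -0.29 without W90S, -1.26 without K86S and -1.34 without W89S. Without both K82S and W89S, an alternative chosen after seeing the data, Fabp1 was at -0.90 (adjusted p = 0.320, limma) and Fabp2 at 0.51 (adjusted p = 0.298, limma). Over all alternatives the adjusted p ran from 0.320 to 0.931 for Fabp1 and from 0.298 to 0.998 for Fabp2.

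The low levels in K82S and W89S came together with other levels that differ along the gut. Of the proximal markers, Lct (lactase) had 456, 76.3 and 489.8 FPKM in the KO mice and 243, 163 and 285 FPKM for the WT mice. Gata4, the transcription factor of proximal identity, was lowest in K82S (11.3 FPKM) and next lowest in W89S (25.4 FPKM), and 34.3 to 47.2 FPKM in the other 4. Slc46a1, the folate transporter of the upper intestine, had 25.4 FPKM in K82S, 17.2 FPKM in W89S, and between 57.1 and 87.6 FPKM in the others. The 7 proximal markers summed to 119 FPKM (K82S) and 208 FPKM (W89S), and to between 378 and 621 FPKM elsewhere, with Lct as the largest part of each sum. The weaker markers, named after their values were seen, were divided. Onecut2 and Pdx1 were lowest in K82S and W89S. Slc40a1 (5.11 FPKM in K82S, 0.529 FPKM in W90S) and Cybrd1 (0.208 FPKM in K82S, 0.122 FPKM in K79S) did not share this order.

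Slc51a and Slc51b, the subunits of the basolateral bile acid exporter that is strongest in the ileum, showed the reverse. Slc51a had 421, 885 and 169 FPKM in the KO mice and 177, 449.6 and 219 FPKM for the WT mice. Its 3 highest libraries were the 3 libraries with the least Fabp1. Among them K79S did not share the low proximal markers, which summed to 552 FPKM in it. Slc51b was highest in K82S (715 FPKM) and W89S (404 FPKM), with at most 216 FPKM elsewhere. The bile acid receptor gene Nr1h4, named after its values were seen, had 61.8 FPKM in K82S, 32.4 FPKM in W89S and at most 13.9 FPKM in the others. Of the 7 distal markers 4 could be read. Cubn and Amn, the receptor subunits for vitamin B12 uptake, were highest in K79S instead (63.6 and 353 FPKM). Cubn, picked after its values were seen, lay at 29.8 to 63.6 FPKM in KO and 14.9 to 29.3 FPKM in WT mice without overlap (log2 fold change 1.17, SE 0.36, adjusted p = 0.393, limma). Such a lack of overlap, in either direction, was seen for 17.2% of all rows tested. Fabp6, Slc10a2 and Fgf15 were not analysed here. Neither the 4 distal nor the proximal markers passed the test between genotypes, and their part in the levels of the 9 genes was not tested.

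**Figure D4:**
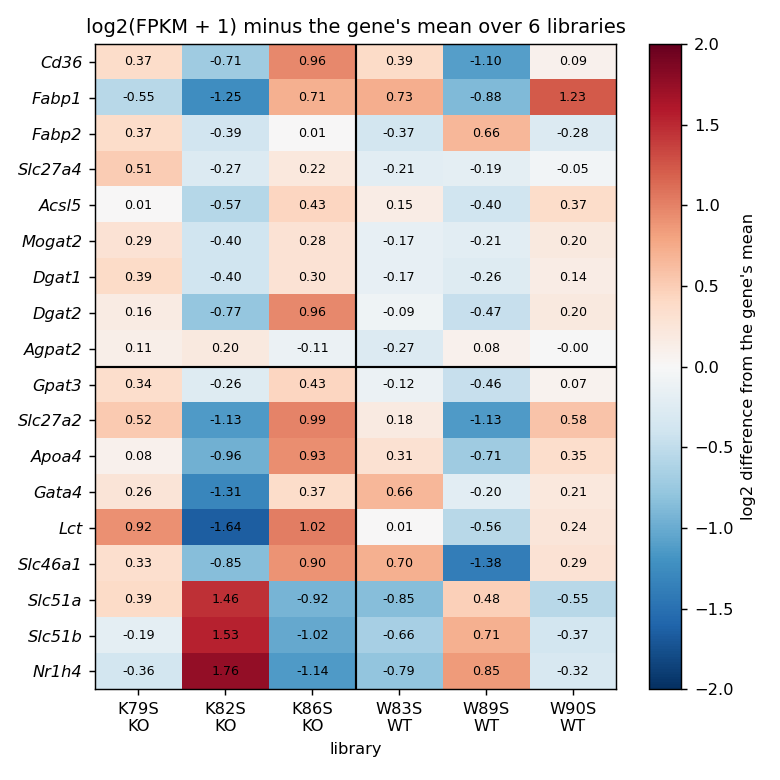
log2(FPKM + 1) minus the mean of the gene over the 6 libraries, for the 9 genes (above the line) and for 9 other genes (below, some picked after their values were seen), with KO libraries on the left. K82S is negative for 8 and W89S for 7 of the 9 genes, and both are positive for Slc51a, Slc51b and Nr1h4, of which K82S has the highest value.

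Other genes of the mucosa leaned one way between the genotypes beside the 9 genes. Of the 10 enterocyte markers 8 had a log2 fold change above 0 (6 to 9 over the alternatives), and of the 8 brush border genes all 8 did, also under each alternative. Over all 13089 rows tested 5538 had a log2 fold change above 0 in the fit with all libraries and no rescaling. The median over all rows was -0.06 there, but 0.08 after rescaling to the same FPKM sum and 0.03 after quantile normalization. The alternatives reuse the same mice and are not repeats. Vil1 (villin), Ezr (ezrin) and Myo1a, the most abundant brush border genes, had means of 1239, 871 and 662 FPKM (KO) beside 1074, 759 and 543 FPKM (WT). The KO and WT mice overlapped for each of them, and the log2 fold changes were 0.21, 0.23 and 0.29 (SEs 0.23, 0.28 and 0.25). The KO and WT mice did not overlap for the peptidase gene Anpep (log2 fold change 0.70, SE 0.28) nor for Cdhr2 and Cdhr5, which link microvilli and were picked after their values were seen (0.50 and 0.38, SEs 0.20 and 0.23). Over all rows tested 17.2% showed no overlap, in either direction.

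Of 6 stem cell and proliferation markers 4 could be read. They lay on the other side, 4 of 4 below 0 and likewise under each alternative, while 57.7% of all rows tested lay below 0 with all libraries. Olfm4, a marker of crypt stem cells, had 3.98, 20.1 and 12.8 FPKM in the KO mice and 24.8, 45.6 and 61.3 FPKM for the WT mice, without overlap (log2 fold change -1.90, SE 0.57, adjusted p = 0.393, limma). The same lack of overlap, in either direction, held for 17.2% of all rows tested. Mki67 (-0.86) and Pcna (-0.34), genes of dividing cells, overlapped, and Mki67 was called lower without K82S (-1.28, adjusted p = 0.035, limma), where 9.28% of all rows were called. With all libraries 0 genes of these 3 lists were called, and their part in the levels of the 9 genes was not tested.

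Of other tissues, the smooth muscle genes Acta2, Tagln and Des were at most 16.1, 11.7 and 5.79 FPKM, in W90S. In W83S the gastric genes Tff1, Pgc and Gkn1 had 15727, 15082 and 6251 FPKM, and the pancreatic genes Amy2a5, Cela1 and Ctrb1 had 20.1, 12.4 and 2.11 FPKM. Each of these 6 was higher there than in any other library. Without W83S the median log2 fold change of the 9 genes was 0.061, and 0 of 9 were called.

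The other genes of uptake and triglyceride synthesis showed no call either. Of 29 listed, 17 could be read and tested, 7 above and 10 below 0, with a median log2 fold change of -0.08, and 0 passed in either direction. The most abundant were Gpd1, which supplies glycerol 3-phosphate (KO mean 259 and WT mean 301 FPKM), Dbi, the acyl-CoA-binding protein (114 and 177 FPKM), and Agpat1 (56.7 and 58.6 FPKM). Their log2 fold changes were -0.23, -0.59 and -0.06 (SEs 0.24, 0.28 and 0.24).

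Lpin2, a phosphatidic acid phosphatase named after its values were seen, was the only one of the 17 whose genotypes did not overlap, beside 17.2% of all rows tested. It had 9.59, 11.7 and 9.48 FPKM in the KO mice and 6.61, 7.92 and 8.59 FPKM for the WT mice, with a log2 fold change of 0.37 (SE 0.15, with adjusted p = 0.393, limma). Slc27a2, Gpat3 and Fabp5 were also picked after their values were seen. Slc27a2, another fatty acid transport protein, had 7.78 FPKM in K82S and 7.83 FPKM in W89S, against 20.8 to 37.2 FPKM in the other 4 libraries. Gpat3, which starts the glycerol 3-phosphate route, was lowest in W89S (34.3 FPKM) and K82S (39.7 FPKM) and highest in K86S (64.4 FPKM). Fabp5, the epidermal type of binding protein, had 17.8 FPKM in W83S and at most 1.80 FPKM in the other libraries. W83S is the library with the gastric markers, whose part in this level was not tested.

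Of the lipid droplet and lipolysis genes, 11 of 14 were tested, 5 above and 6 below 0, and 0 were called. Cideb, which helps to load lipid onto chylomicrons, had 293 FPKM (KO) and 343 FPKM (WT). Plin3, a coat protein of lipid droplets, had 282 and 248 FPKM, and Cidec, which fuses droplets, 69.4 and 77.6 FPKM. The 10 chylomicron assembly genes were all tested, 5 on each side of 0, with a median log2 fold change of -0.00 and 0 calls. Apoa1 was the steadiest of its most abundant genes, with 11160.5 FPKM in K82S as its lowest and 14702 FPKM in W90S as its highest value. Apoa4, the apolipoprotein that rises with fat absorption, ranged from 2820 FPKM in K82S and 3340 FPKM in W89S to 10434 FPKM in K86S. P4hb, a subunit of the microsomal triglyceride transfer protein, was likewise lowest in K82S (536 FPKM) and W89S (564 FPKM).

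Among 14 transcription factors known to act on enterocyte lipid genes 8 lay above and 6 below 0, and 0 were called. The most abundant were Creb3l3, Hnf4a and Cdx2. Creb3l3, which drives apolipoprotein genes, had 113 FPKM in K82S and between 172 and 292 FPKM in the other libraries. Hnf4a, a general regulator of enterocyte genes, did not share this order, with 235 FPKM in K82S as its highest level and 129 FPKM in W83S as its lowest. Cdx2, a factor of intestinal identity, lay between 62.6 FPKM (W83S) and 162 FPKM (K79S). Their log2 fold changes were 0.07, 0.33 and 0.29 (SEs 0.36, 0.27 and 0.38).

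The median profile of the 9 genes, taken on log2(FPKM + 1) after subtraction of each gene's mean, was 0.29, -0.40 and 0.30 in K79S, K82S and K86S and -0.17, -0.26 and 0.14 in W83S, W89S and W90S. Among 4527 other named genes with a mean of at least 10 FPKM, the 5 with the smallest root mean square difference from it over the 6 libraries were C2cd2l (0.04), Mfsd4b2, Ttyh2, Ube4b and Gucy2c (0.06). Gucy2c, the guanylin receptor of the brush border, had 87.0, 58.9 and 93.6 FPKM in the KO mice and 64.6, 57.3 and 81.2 FPKM for the WT mice. With 6 points per gene and this many genes such closeness is a description only.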

How the data were processed

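Mucosal RNA of 3 KO and 3 WT mice was analysed, grouped by the genotype in the labels. The authors removed adapters with trim-galore, aligned with HISAT2 and quantified with StringTie. The submitters' processing notes name HISAT2 and the build mm10. The deposited values are FPKM per gene and library, made by the authors. The annotation release and the handling of strand are not given in the sources used here. The study lists read numbers per library, which entered no fit here, and the FPKM table holds no counts. There were 0 columns without a sample.

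Identifiers were ranked by the K79S value beside them and rows by W83S, and both rankings were joined with small fixed offsets. 12402 of 22700 identifiers were placed, 12397 of them with a symbol in GENCODE M21. Identifiers outside the offsets were not used.

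Rows with at least 1 FPKM in at least 2 libraries were kept, as in the study's filter. log2(FPKM + 1) of all 13089 kept rows was fitted with limma 3.58.1 (eBayes with trend) in R 4.3.3, with Benjamini-Hochberg adjustment over all rows. This scale understates changes of weakly expressed genes. Calls needed a fold of more than 1.5 either way with the adjusted p under 0.05. Single values were compared by exact permutation in Python 3.11.15 with scipy 1.17.1. Alternatives covered the pseudocount, the filter, the scaling, array weights and single libraries.

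The 9 genes and the other lists were chosen with earlier results of these data known. The named genes were all 9, the 3 most abundant of each other list and any past the threshold, and the 5 nearest in profile. Genes outside this rule are marked where they appear.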

Additional observations from a re-analysis of the deposited data

How the results depend on the processing

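Under 14 alternatives 0 of the 9 genes and 0 of the 17 other uptake and triglyceride genes passed the threshold, with adjusted p between 0.143 and 0.998 from limma for the 9 genes. Of 126 values of single genes, 113 kept the direction of the fit with all libraries and 13 had the opposite one, and the cause was not tested. Rescaling each library to the same FPKM sum raised the median of all rows by 0.14 on the log2 scale, and turned Fabp2 to 0.18 and Acsl5 to 0.10, and quantile normalization turned them to 0.17 and 0.069. Array weights turned Fabp2 to 0.24, and it was 0.51 without K82S and W89S. When single libraries were left out, the log2 fold change ran from -0.032 to 0.87 for Cd36, from -1.34 to -0.28 for Fabp1, from -0.20 to 0.32 for Fabp2, from -0.32 to 0.18 for Acsl5, from -0.0021 to 0.35 for Mogat2 and from -0.18 to 0.68 for Dgat2. The median of the 9 genes stayed between 0.0028 and 0.36, with 0.31 against 0.08 for all rows after rescaling. Leaving out K82S raised the calls over all rows from 1 to 1184, or 9.28% of the rows tested, and 0 of them were among the 9 genes. No paired analysis was possible because, although the study calls its samples matched, the labels give no number or name that ties a KO mouse to a WT mouse. Depth entered no fit, since FPKM holds no counts. The study lists fewer mapped reads for K79S, K86S and W90S than for K82S, W83S and W89S. The median profile of the 9 genes was above 0 in the former (0.29, 0.30 and 0.14) and below 0 in the latter (-0.40, -0.17 and -0.26). The part of depth in the levels was not tested.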
